A study of Mus musculus with 10 samples.

Results

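Complement is a set of plasma and membrane proteins that tag microbes, immune complexes and damaged cells for removal. It is triggered through C1q in the classical pathway, through collectins and ficolins in the lectin pathway, or through slow turnover of C3 in the alternative pathway, and all routes meet at the cleavage of C3. The fragments released call in myeloid cells through their receptors, while membrane and soluble regulators keep host cells from being attacked. In lung, C3 is made by epithelial cells and macrophages, and C1q by macrophages and dendritic cells.

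The genes described here are the 9 complement components and regulators C1qa, C1qb, C1qc, C3, Cfb, C3ar1, C5ar1, Cd55 and Cd59a, chosen by name among 19096 genes that had a probe with a gene symbol. They had 12 probes in all, and each gene was represented by its probe with the highest mean deposited signal over the 10 arrays. Expression was measured on single-color Agilent whole-mouse-genome arrays, 1 array per mouse sample, in 5 whole lungs of WT mice (Lkb1f/f) and in 5 whole lung tumors (SCC) of CCSPiCreLkb1f/f mice. Both groups carried the floxed Lkb1 alleles, had the B6.129 strain background and were 13 months old. Only the SCC mice carried CCSPiCre, a Cre recombinase driven by the Club Cell Secretory Protein promoter, which acts in airway epithelial cells to delete the kinase gene Lkb1. The comparison asks how complement gene expression differs between a squamous lung tumor and whole normal lung.

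Values below are log2 quantile-normalized signals, and differences are SCC minus WT on that scale, so that 1 log2 unit is a 2-fold difference. Adjusted p-values come from limma with Benjamini-Hochberg adjustment over all 30374 tested probes, and a gene was called when this was under 0.05 and the difference at least 2-fold. The SCC label matched its markers: all 5 squamous markers with a probe were called higher in SCC, with all SCC arrays above all WT arrays, among them Krt5 (11.35 log2 units, adjusted p = 2.14e-07), and the 7 alveolar type 2 markers were well above background on all arrays of both groups, which does not tell the tissues apart. The floxed gene itself could not be checked, as no probe was paired with it.

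A pair of SCC arrays stood apart. SCC replicate 2 correlated across tested probes with the WT arrays at r = 0.940 to 0.946, against 0.850 to 0.905 for the other SCC arrays, and with WT replicates 2 and 3 it had the lowest Xist (2.27 to 4.33, 13.75 or more on the other 7 arrays). SCC replicate 5 had 90.2% of probes well above background (71.0% to 74.4% on the other arrays) and combined Xist at 13.75 with the Y-linked Ddx3y at 8.34. Of the 3 slides used, slide 2 alone held both groups (WT replicate 5 with SCC replicates 1 to 3). Slide 1 held the other WT arrays and slide 3 the other SCC arrays. The main results are therefore also given without these arrays and with slide as a block, where a call changes.

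Of the 9 genes, 4 were called higher in SCC (C1qa, C1qb, C1qc and C3ar1) and 0 lower. Over the 15586 genes tested by their representative probe, 11.6% were called higher and 13.4% lower. Cfb was higher by less than 2-fold, and C3, C5ar1, Cd55 and Cd59a did not pass. All 9 genes were tested. For 8 of them the probe was well above background on all 10 arrays, and C5ar1 was so on 3 WT and 4 SCC arrays. The median difference of the 9 genes was 0.64, and that of all genes tested was -0.04. The same 4 genes were called without SCC replicate 2, without SCC replicate 5 and without both. With slide as a fixed block, which rests on slide 2 and its single WT array, 0 of the 9 passed limma's test at an adjusted p under 0.05. Over the 15586 genes tested, that fit called 816 higher and 1002 lower, against 1803 and 2084 without the block. At an unadjusted p under 0.05 the 4 genes and Cfb were higher in the fit with the block. By that rule 0 of the 9 were lower in it, in the fit without the block or by the methods' t-test. The share of all genes by that rule was not counted.

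**Figure D1:**
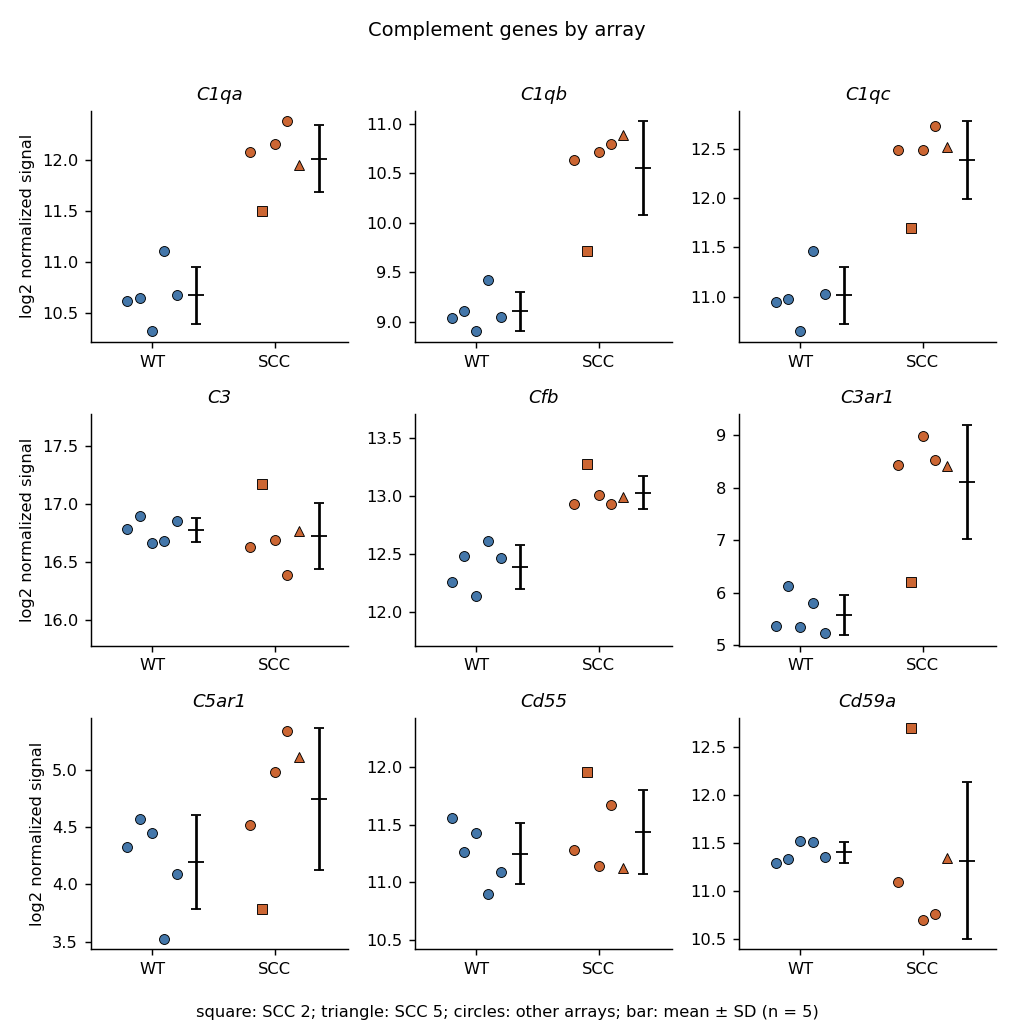
Log2 normalized signal (y axis) of the 9 complement genes on each of the 5 WT and 5 SCC arrays, with the mean and SD of each group beside the points. All SCC points lie above all WT points for C1qa, C1qb, C1qc, C3ar1 and Cfb, and SCC replicate 2, drawn as a square, is the lowest SCC array for the first 4 of these.

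C1qa, C1qb and C1qc encode the chains of C1q, the recognition protein that binds antibody complexes and dying cells. All 3 were higher in SCC by a similar amount, from 1.34 to 1.45 log2 units. In the RefSeq order of genes (GRCm38.p6) they are neighbors on chromosome 4, with C1qc between C1qb and C1qa and no other protein-coding gene between them. Promoter sequences from the same RefSeq table matched 7 of the 9 genes, not including C1qa and Cfb. The bases before the start of the neighboring C1q genes and of C3ar1 are shown because these genes were called together. Each run is 250 bases long, ends at the base before the annotated start and reads along the gene's strand (minus for all 3), at chr4:136886201-136886450, chr4:136892915-136893164 and chr6:122856158-122856407 of GRCm38.p6. Capitals mark GAGGAA or its reverse complement, the core that the myeloid factor PU.1 is known to bind.
C1qb: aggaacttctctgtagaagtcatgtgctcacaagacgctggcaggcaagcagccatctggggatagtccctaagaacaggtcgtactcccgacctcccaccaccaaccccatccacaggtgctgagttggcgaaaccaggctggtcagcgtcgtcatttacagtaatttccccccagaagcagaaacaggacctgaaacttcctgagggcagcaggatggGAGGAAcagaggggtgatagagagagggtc
C1qc: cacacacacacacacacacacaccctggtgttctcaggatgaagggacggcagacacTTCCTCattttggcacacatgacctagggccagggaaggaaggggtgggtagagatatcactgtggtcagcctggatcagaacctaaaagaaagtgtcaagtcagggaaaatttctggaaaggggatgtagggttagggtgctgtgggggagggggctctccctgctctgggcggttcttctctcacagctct
C3ar1: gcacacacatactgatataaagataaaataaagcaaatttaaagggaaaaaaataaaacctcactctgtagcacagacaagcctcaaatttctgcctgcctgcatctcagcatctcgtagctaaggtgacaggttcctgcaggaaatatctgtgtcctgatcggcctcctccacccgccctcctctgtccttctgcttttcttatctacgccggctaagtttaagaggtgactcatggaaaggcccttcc
The letters GAGGAA on either strand were found once in C1qb, 30 bases before the start, once in C1qc, 193 bases before it, and not in C3ar1. Of 32536 promoter windows of this length, 23.4% hold them. Among the other genes with a promoter they were in Cd59a and not in C3, C5ar1 or Cd55. The letters TTCNNNGAA, a binding site of STAT factors, were in none of the 7 and in 7.04% of all windows. The interferon response element GAAANNGAAA was in Cd59a alone of the 7, 187 bases before the start, and in 2.98% of all windows. The NF-kB motif was in C1qc alone, 41 bases before the start, and in 7.28% of all windows. Both strands were searched for each motif. These matches describe the letters only.

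C1qa was at 10.62, 10.65, 10.32, 11.10 and 10.67 on WT replicates 1 to 5 and at 12.08, 11.50, 12.16, 12.38 and 11.95 on SCC replicates 1 to 5. The groups did not overlap, and the lowest SCC array, replicate 2, lay 0.40 above the highest WT array. Its difference was 1.34 (SE 0.19, 95% confidence interval 0.92 to 1.75, adjusted p = 0.000308). C1qb was at 9.04, 9.11, 8.91, 9.42 and 9.05 in WT and at 10.64, 9.72, 10.72, 10.79 and 10.89 in SCC. Again SCC replicate 2 was lowest and every SCC array was above every WT array, a difference of 1.45 (SE 0.22, adjusted p = 0.000492). C1qc was at 10.95, 10.98, 10.65, 11.46 and 11.03 in WT and at 12.48, 11.70, 12.49, 12.73 and 12.51 in SCC, a difference of 1.37 (SE 0.21, adjusted p = 0.000539). For each of the 3 chains the exact two-sided permutation test over the 10 arrays gave p = 0.00794, the smallest value that 5 against 5 arrays allow. This p follows from the groups not overlapping, and 18.9% of all genes tested had all SCC arrays above all WT arrays.

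The 3 chains also moved together between arrays of a group. WT replicate 4 was the highest and WT replicate 3 the lowest WT array for each of them. Deviations from the group means correlated over the 10 arrays at r = 0.97 for C1qa with C1qc, 0.94 for C1qb with C1qc and 0.83 for C1qa with C1qb, and without SCC replicate 2 at 0.96, 0.87 and 0.74. These arrays share slides and the normalization. Without SCC replicate 2 the differences were 1.47, 1.65 and 1.54 for C1qa, C1qb and C1qc. Within slide 2, SCC replicates 1 to 3 exceeded WT replicate 5 by 1.24, 1.31 and 1.19 in that order. These are also the values with slide as a fixed block, where the adjusted p was 0.0618, 0.0637 and 0.083.

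C3ar1 encodes the receptor for the C3a fragment, carried by myeloid cells, and was also higher in SCC. It was at 5.36, 6.12, 5.34, 5.80 and 5.23 in WT and at 8.43, 6.20, 8.98, 8.53 and 8.40 in SCC. SCC replicate 2 was only 0.07 above the highest WT array, while the other 4 SCC arrays were more than 2 log2 units above it. The difference was 2.54 (SE 0.47, 95% confidence interval 1.48 to 3.59, adjusted p = 0.00172), or 5.80-fold, and 3.01 without SCC replicate 2. A second probe of the gene gave 2.42 (adjusted p = 0.00171). The size depended on the background correction: with normexp on the raw spot intensities the difference was 1.26 (adjusted p = 0.00189), no longer above those of C1qb (1.26) and C1qc (1.30). With slide as a fixed block it was 2.63 (adjusted p = 0.0989).

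C5ar1, the receptor for the C5a fragment, was dim. It was at 4.33, 4.57, 4.45, 3.53 and 4.09 in WT and at 4.52, 3.78, 4.98, 5.35 and 5.11 in SCC, and the groups overlapped. The difference was 0.55 (95% confidence interval -0.13 to 1.24, adjusted p = 0.16). Without SCC replicate 2 it was 0.79 with an adjusted p of 0.0192, so this array decided whether the gene passed. C5ar2, its neighbor on chromosome 7 and a second receptor for the same fragment, differed by 0.54 (adjusted p = 0.22).

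C3, the protein on which all pathways converge, did not differ beyond the spread between arrays. It was at 16.79, 16.90, 16.66, 16.68 and 16.86 in WT and at 16.63, 17.17, 16.69, 16.39 and 16.77 in SCC. The highest and the lowest of the 10 values were both SCC arrays, replicates 2 and 4. The difference was -0.05 (95% confidence interval -0.36 to 0.26, adjusted p = 0.789), so larger differences in either direction lay outside the interval. The sign turned with scaling to the 75th percentile (0.22, adjusted p = 0.101), which moved the median difference of the tested probes from -0.09 to 0.03. A second, dim C3 probe differed by 0.38 (adjusted p = 0.346) and under that scaling by 0.80 (adjusted p = 0.00143). Without SCC replicate 5 it differed by 0.71 (adjusted p = 0.0031), so the probes disagreed in both settings.

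Cfb encodes factor B, which joins C3b to form the alternative pathway convertase. It was at 12.26, 12.48, 12.14, 12.61 and 12.47 in WT and at 12.93, 13.28, 13.01, 12.94 and 12.99 in SCC. All SCC arrays were above all WT arrays, as for 5 of the 9 genes against 18.9% of all genes tested, and SCC replicate 2 was the highest. The difference was 0.64 (SE 0.12, 95% confidence interval 0.38 to 0.90, adjusted p = 0.0015), or 1.56-fold. The exact two-sided permutation test gave p = 0.00794, which again follows from the groups not overlapping. Counting an adjusted p under 0.05 alone, 5 of the 9 genes were higher and 0 lower. Of all genes tested, 25.5% were higher and 28.4% lower by that rule. With slide as a fixed block the Cfb difference was 0.61 (adjusted p = 0.122).

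Cd55 and Cd59a encode membrane proteins that protect host cells, the first by dismantling convertases and the second by blocking the membrane attack pore. Cd55 was at 11.56, 11.26, 11.43, 10.90 and 11.09 in WT and at 11.28, 11.95, 11.14, 11.67 and 11.12 in SCC, a difference of 0.19 (95% confidence interval -0.24 to 0.62, adjusted p = 0.441). The groups overlapped, and without SCC replicate 2, the highest array, the difference was 0.06 (adjusted p = 0.784). Cd59a was at 11.30, 11.33, 11.53, 11.52 and 11.36 in WT and at 11.10, 12.70, 10.70, 10.76 and 11.34 in SCC, with a mean difference of -0.09 (adjusted p = 0.848). SCC replicate 2 was above every WT array and SCC replicates 1, 3 and 4 were below every one of them. Without SCC replicate 2 the difference was -0.43 (adjusted p = 0.0266), so that array decided this result too. The second Cd59a probe differed by 0.01, and by -0.25 (adjusted p = 0.0816) without SCC replicate 2.

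C1q and the receptors are made by macrophages, so macrophage genes were set beside them. Of 7 macrophage markers, 2 were called higher (Ms4a7 by 2.89 and Cd68 by 1.95), and 3 without SCC replicate 2. Mrc1 was higher by 0.65 and Csf1r lower by 0.50 at an adjusted p under 0.05, and Adgre1 (0.75), Fcgr1 (0.19) and Mertk (-0.34) did not pass. Further probes of Csf1r differed by 0.49 (adjusted p = 0.461) and -0.26 (adjusted p = 0.231), with overlapping groups. Without SCC replicate 2, Adgre1 (1.05, adjusted p = 0.00018) and Mertk (-0.21, adjusted p = 0.0267) passed. The summed signal of the 7 was 14.24 to 14.68 log2 units in WT, 14.34 on SCC replicate 2 and 15.57 to 15.79 on the other SCC arrays. For 6 of the 7 markers the lowest SCC value came from replicate 2, as it did for the C1q chains and C3ar1. Among 6 tested neutrophil markers 4 were called higher, 5 without SCC replicate 2 and 2 without SCC replicate 5. Over the 15586 genes tested, 1803 were called higher, 2048 without SCC replicate 2 and 1760 without SCC replicate 5. In the fit with slide as a fixed block limma called 1 macrophage marker (Ms4a7), 0 neutrophil markers and 816 of all genes tested higher. At an unadjusted p under 0.05, 2 of each list were higher there. The neutrophil list summed to 14.74 to 15.55 in WT, 14.07 on SCC replicate 2 and 16.73 to 16.88 on the others. The part of these cells in the C1q and C3ar1 differences was not tested, and in bulk tissue a change in the number of such cells and a change in RNA per cell cannot be told apart.

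**Figure D2:**
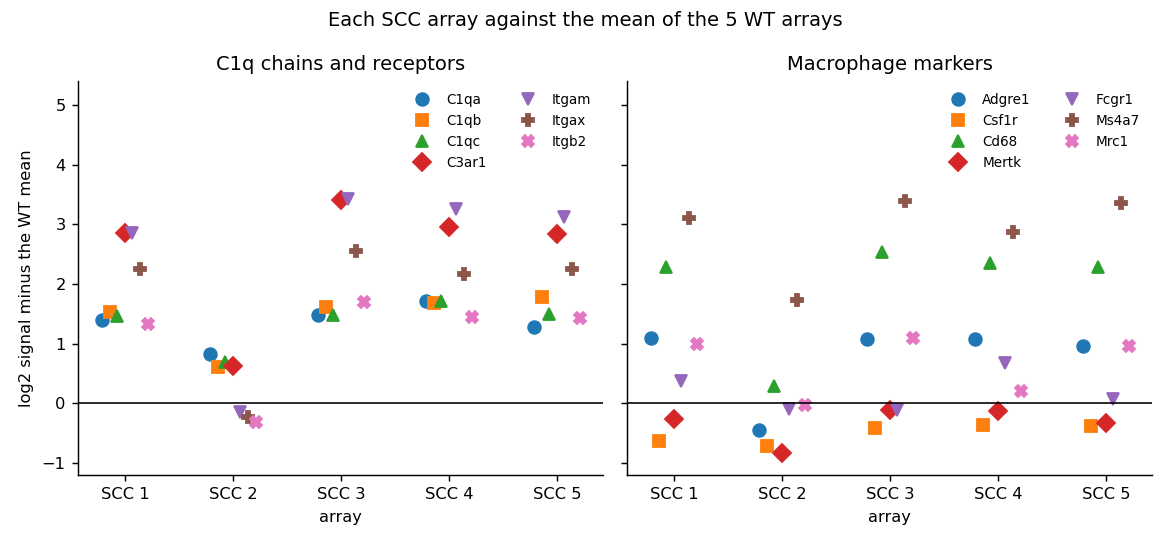
Log2 signal minus the mean of the 5 WT arrays (y axis) on each SCC array (x axis), for the C1q chains and receptors on the left and the 7 macrophage markers on the right. On SCC replicate 2 the C1q chains and C3ar1 are still above 0, the integrin genes are below 0, and 6 of the 7 macrophage markers are at their lowest among SCC arrays.

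The genes whose deviations from the group means over the 10 arrays were most like those of the C1q mean, among 14101 candidates, were Ap2s1 and Lsm4 (both r = 0.986), Slamf9 (0.978), Itgal (0.977) and Zfp46 (0.973). For C3 they were Gkn3 (0.964), Mcrip2 (0.960), Hkdc1 (0.960), Serhl (0.950) and Baiap2l2 (0.946). For Cfb they were Pdxp (0.948), Maf1 (0.905), Meis1 (0.898), Abhd17a (0.891) and Rpl18 (0.890). Without SCC replicate 2 the r were 0.917 to 0.985 for the C1q mean, 0.841 to 0.934 for C3 and 0.840 to 0.922 for Cfb. As the highest of 14101 values over 10 arrays, these correlations are high partly through the search. The differences between groups of these genes varied: among those most like C1q, Ap2s1 was higher in SCC by 0.68 and Itgal lower by 0.99, while Pdxp was higher by 0.65, close to the 0.64 of Cfb. C3 and the C1q chains deviated in opposite directions, at r = -0.71 to -0.75 over 10 arrays and -0.39 to -0.03 without SCC replicate 2.

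The rest of the pathway was examined through 36 further complement genes, of which 35 had a probe and 27 were tested. Of these 27, 6 were called higher and 8 lower, against the 11.6% and 13.4% given above for all genes. By an adjusted p under 0.05 alone 7 were higher and 13 lower, against 25.5% and 28.4% of all genes tested. For 11 of the 27 all SCC arrays were below all WT arrays, and over all genes tested this share was 22.5%. For 3 of the 27 all SCC arrays were above all WT arrays, against 18.9% of all genes tested. The median difference of the 27 was -0.51. With slide as a fixed block 2 were called higher (C4bp and Cfi) and 7 lower (C1ra, C1s1, C2, Colec11, Cfd, C6 and Vtn). Of all 15586 genes tested, 816 were called higher and 1002 lower in that fit. The other 11 genes that passed the adjusted p without the block did not pass it there, among them C4b (adjusted p = 0.117), Serping1 (0.0513) and Clu (0.161).

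**Figure D3:**
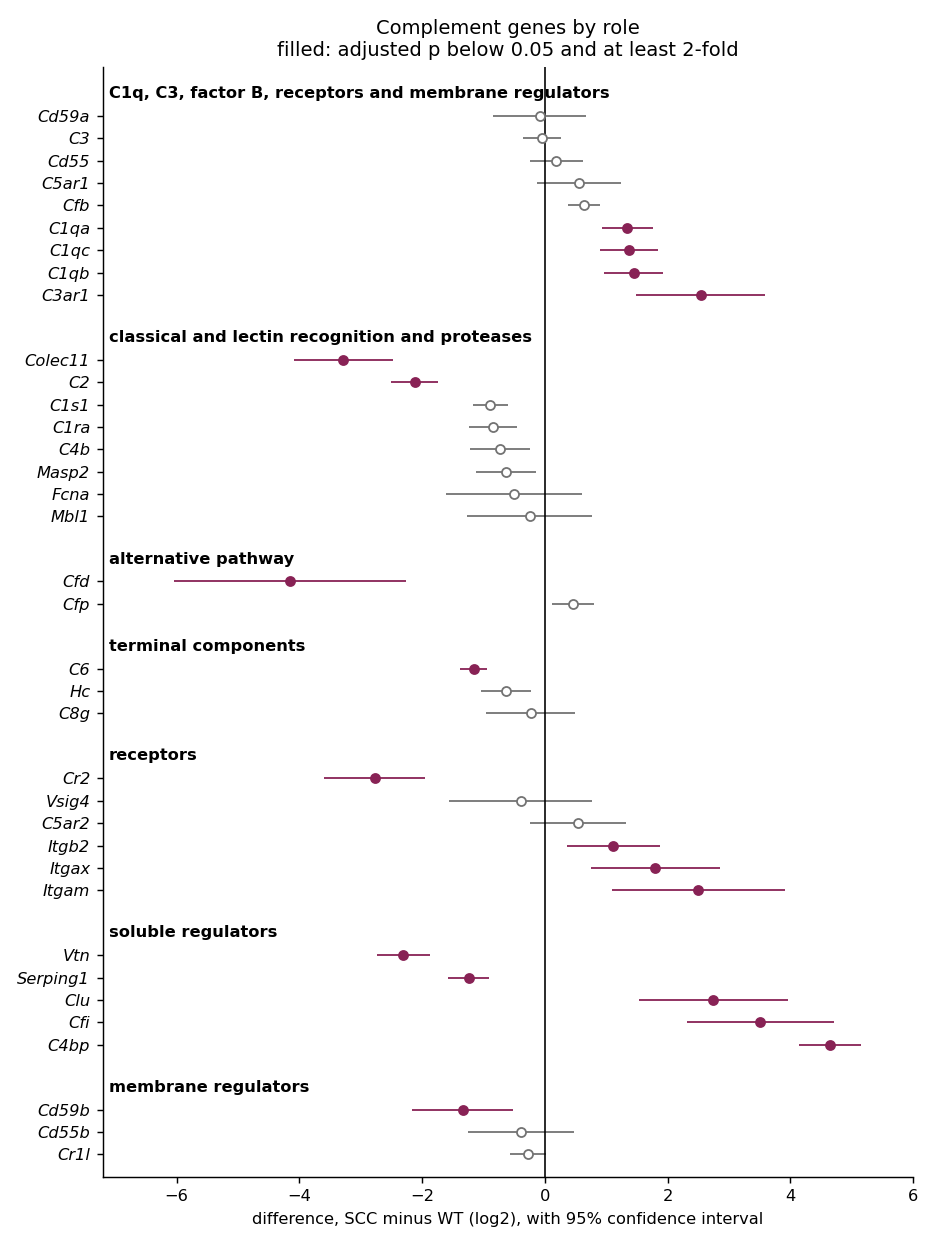
Difference between SCC and WT (x axis, log2 units) with its 95% confidence interval for the 9 genes and the 27 tested pathway genes, in groups by role. Filled points are genes called at an adjusted p under 0.05 and at least 2-fold: C1q and several receptors lie to the right, recognition proteins and proteases to the left, and soluble regulators on both sides.

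The genes that act directly after C1q went the other way from it. C1ra and C1s1 encode the proteases that sit in the C1 complex, and C2 and C4b the substrates that form the classical convertase. Of 8 tested recognition and protease genes 0 were higher (0 also at an unadjusted p under 0.05, by limma and by the methods' t-test), 2 were called lower and 4 more passed the adjusted p with less than a 2-fold fall. C2 was at 13.51, 13.24, 13.20, 13.74 and 13.95 in WT and at 11.44, 11.61, 11.14, 11.64 and 11.19 in SCC, which did not overlap. Its difference was -2.12 (SE 0.17, adjusted p = 1.62e-05). C2 is the next protein-coding gene after Cfb on chromosome 17, which was higher by 0.64.

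Colec11, a collectin of the lectin pathway, was at 8.72 to 10.01 in WT and at 4.97 to 6.71 in SCC, a difference of -3.28 (SE 0.36, adjusted p = 7.9e-05). With normexp background correction it was -2.16. C1s1 was lower by 0.89 (adjusted p = 0.000369), C1ra by 0.85 (adjusted p = 0.00291) and C4b by 0.73 (adjusted p = 0.02), each with all SCC arrays below all WT arrays. Masp2 was at -0.63 (adjusted p = 0.0376), at -0.41 (adjusted p = 0.00451) without SCC replicate 5, and no longer passed under 75th percentile scaling (-0.21, adjusted p = 0.521). Mbl1 (-0.24) and Fcna (-0.51, and -0.33 without SCC replicate 5) did not pass. SCC replicate 5 decided this for Mbl1, at 7.85 where the remaining SCC arrays had 5.06 to 5.60, and without it the difference was -0.73 (adjusted p = 0.00092). Masp1, Mbl2, Fcnb and C4a were too dim to be tested. C4a and C4b are close relatives, as are Cd59a and Cd59b, and Cd55 and Cd55b. Cross-hybridization between such pairs was not examined.

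**Figure D4:**
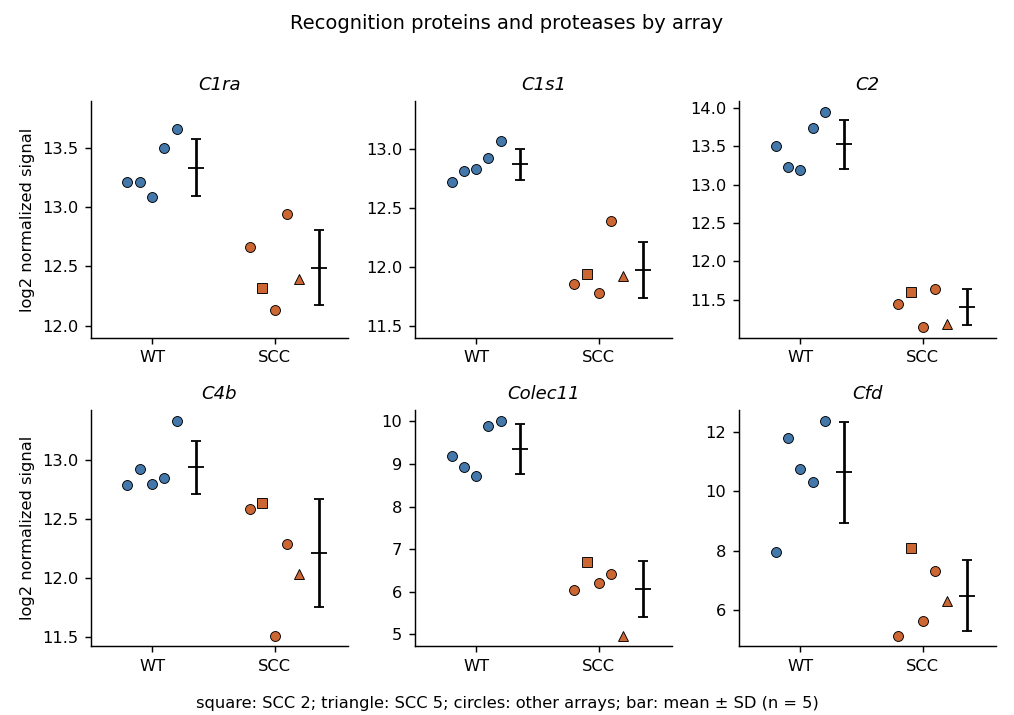
Log2 normalized signal (y axis) of 6 genes of recognition and proteolysis on each WT and SCC array, with group means and SD. The groups do not overlap for C1ra, C1s1, C2, C4b and Colec11, and for Cfd the highest SCC array (8.08) lies just above the lowest WT array (7.96).

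Cfd encodes factor D, the protease that cleaves factor B and is best known from fat tissue. It varied widely in WT, at 7.96, 11.80, 10.75, 10.31 and 12.39, and was at 5.14, 8.08, 5.63, 7.31 and 6.31 in SCC. The groups touched through WT replicate 1 and SCC replicate 2, and the difference was -4.15 (SE 0.85, adjusted p = 0.0029). It was -3.08 with normexp and -6.10 within slide 2. Cfp, or properdin, which stabilizes the alternative convertase, was higher by 0.46 (adjusted p = 0.0291), less than 2-fold. Of the terminal components C6 was lower by 1.16 (adjusted p = 1.94e-05), with WT at 11.31 to 11.63 and SCC at 10.15 to 10.48. Hc, which encodes C5, was at -0.64 (adjusted p = 0.017, and 0.161 under 75th percentile scaling). C8g differed by -0.23 without passing, by -0.46 without SCC replicate 2 and by 0.06 without SCC replicate 5, and C8a, C8b and C9 were too dim to be tested.

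Among the 6 other receptor genes 3 were called higher and 1 lower. With slide as a fixed block Itgam (2.43), Itgax (1.67), Itgb2 (1.01) and Cr2 (-2.23) were no longer called. Itgam, Itgax and their shared partner Itgb2 encode the integrin receptors for cleaved C3b, found on neutrophils, macrophages and dendritic cells. Itgam was at 8.94, 9.88, 9.06, 9.19 and 8.78 in WT and at 12.02, 9.02, 12.60, 12.42 and 12.29 in SCC. The groups overlapped through SCC replicate 2 alone, and the same held for Itgax and Itgb2. The differences were 2.50 for Itgam (adjusted p = 0.00892), 1.80 for Itgax (0.0107) and 1.11 for Itgb2 (0.0216), and 3.16, 2.30 and 1.47 without SCC replicate 2. Itgb2 missed the threshold without SCC replicate 3 (0.97, adjusted p = 0.0522) and without SCC replicate 4 (1.03, adjusted p = 0.0502). Cr2, the receptor for C3d on B cells and follicular dendritic cells, had a mean of 7.73 ± 0.30 in WT and 4.96 ± 0.84 in SCC (SD, n = 5 each). The groups did not overlap, and in SCC 3 of 5 arrays were well above background. Its difference of -2.77 (adjusted p = 0.000234) was -1.25 with normexp and -1.47 as the mean of its probes. The probes disagreed, as the second one differed by -0.17 (adjusted p = 0.728) with overlapping groups. Vsig4 (-0.39, and -0.80 without SCC replicate 5), a receptor of tissue macrophages, did not pass.

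The 5 soluble regulators analysed were all called, 3 higher and 2 lower. C4bp, whose product binds C4b and helps to inactivate it, was called higher. It was at 6.32, 5.81, 5.52, 5.83 and 5.68 in WT and at 10.72, 10.11, 10.80, 9.89 and 10.85 in SCC. Each SCC array was more than 3 log2 units above each WT array, and the difference was 4.64 (SE 0.22, 95% confidence interval 4.14 to 5.14, adjusted p = 1.17e-06), or 24.9-fold. With normexp it was 3.26.

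Cfi encodes factor I, the protease that cuts C3b and C4b with the help of cofactors such as C4bp. It was at 8.57, 7.59, 7.44, 8.83 and 8.31 in WT and at 11.71, 12.70, 11.95, 9.68 and 12.25 in SCC, a difference of 3.51 (SE 0.54, adjusted p = 0.000535). SCC replicate 4 was the lowest SCC array and still above every WT array. Clu, or clusterin, which keeps the terminal complex from entering membranes, was at 13.61 to 14.03 in WT and at 15.96, 18.50, 15.35, 15.93 and 17.58 in SCC. SCC replicates 2 and 5 were well above the other SCC arrays, and the difference of 2.74 (adjusted p = 0.00237) was 1.83 (adjusted p = 2.37e-05) without both.

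Serping1 (the C1 inhibitor) and Vtn (vitronectin) were lower. Serping1 was at 14.58 to 14.76 in WT and 13.24 to 14.02 in SCC, a difference of -1.24 (adjusted p = 0.000128). Vtn was at 10.78 to 11.32 in WT and 8.52 to 9.45 in SCC, a difference of -2.30 (adjusted p = 1.87e-05). For both the highest SCC value came from SCC replicate 2, and no SCC array reached the lowest WT array.

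**Figure D5:**
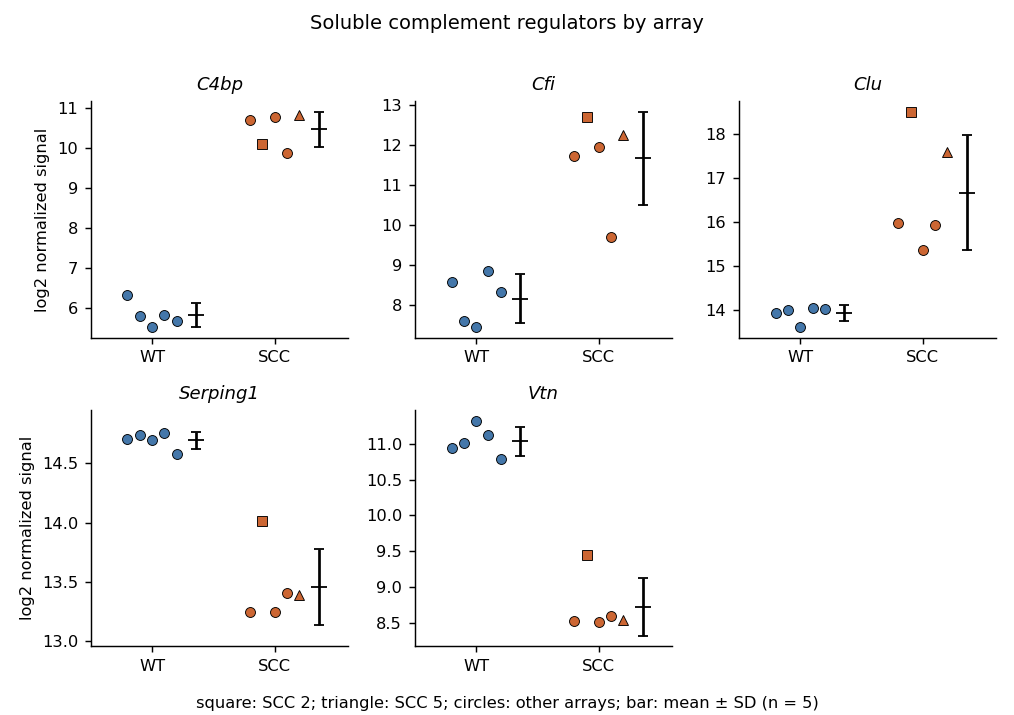
Log2 normalized signal (y axis) of the 5 soluble regulators analysed on each WT and SCC array, with group means and SD. C4bp, Cfi and Clu are higher and Serping1 and Vtn lower on every SCC array than on every WT array.

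Of the other membrane regulators, Cd59b, the paralog and neighbor of Cd59a on chromosome 2, was called lower by 1.34 (adjusted p = 0.0131). It was at 6.84 to 7.86 in WT and at 5.01 to 7.18 in SCC, which overlapped through SCC replicate 2, and the difference was -0.72 with normexp and -0.19 within slide 2. Cr1l (-0.28) and Cd55b (-0.39, and -0.03 without SCC replicate 5) did not pass, although without SCC replicate 2 Cr1l did (-0.36, adjusted p = 0.0195). Cd46 was too dim to be tested.

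Markers of normal lung cells differed in their direction. The counts below stand against 11.6% of all genes tested called higher and 13.4% called lower. All 6 endothelial markers and all 3 mesothelial markers were called lower, with summed signals of 16.96 to 17.26 against 14.19 to 15.44 and of 13.84 to 14.67 against 10.75 to 12.61 log2 units in WT against SCC. Of 6 fibroblast markers 3 were called lower and 0 higher (16.67 to 16.88 against 16.27 to 16.72). Of its 3 collagen genes, Col1a1 (0.66, adjusted p = 0.00581) and Col3a1 (0.53, adjusted p = 0.0062) were higher in SCC by less than 2-fold, with all SCC arrays above all WT arrays, and Col1a2 (-0.25, adjusted p = 0.0892) overlapped between groups. Of 3 club cell markers 2 were called lower, 3 without SCC replicate 2 and 1 without SCC replicate 5 (19.25 to 19.72 against 17.18 to 19.32), and of 7 alveolar type 2 markers 0, or 2 without SCC replicate 2 (19.59 to 19.67 against 19.25 to 19.58). Of those 7, 4 were lower by less than 2-fold at an adjusted p under 0.05: Napsa (-0.98), Sftpb (-0.86), Lamp3 (-0.81) and Sftpa1 (-0.74). Sftpc, the brightest of the list, had the same top value of 18.80 on all WT arrays and on SCC replicates 1 and 2. Of 4 alveolar macrophage markers 1 was called lower (17.52 to 17.79 against 17.38 to 17.68) and of 4 dendritic cell markers 2 (8.60 to 8.72 against 7.87 to 8.79). Of 2 tested mast cell markers 1 was called higher and 1 lower (7.12 to 8.70 against 8.62 to 13.22 for the list). In the fit with slide as a fixed block limma called 5 endothelial and all 3 mesothelial markers lower. It called 0 fibroblast, club cell, dendritic cell or mast cell markers in either direction. Of all 15586 genes tested, 816 were called higher and 1002 lower in that fit. At an unadjusted p under 0.05, 2 fibroblast markers were higher and 2 lower there, 3 dendritic cell markers were lower, 1 mast cell marker was higher and 0 club cell markers differed. The 5 squamous markers summed to 7.38 to 7.93 in WT and 16.22 to 18.76 in SCC. The part of these cell types in the differences of C2, Colec11, Cfd, C6, Cr2, Serping1, Vtn, C4bp, Cfi and Clu was not tested.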

How the data were processed

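Groups and replicate numbers came from the sample titles. Per the file headers, the authors scanned the arrays and read them with Agilent Feature Extraction, and deposited for each spot a background-subtracted intensity, median raw intensities and quality flags. They also deposited a matrix of log2 values, used to choose representative probes and as an alternative. After removal of control spots and of spots flagged as outliers, log2 processed intensities were averaged by probe, and the 41174 probes were quantile-normalized. A probe was tested if well above background on at least 4 of 5 arrays of a group, which left 30374. SCC and WT were compared with limma 3.58.1 in R 4.3.3 (lmFit, eBayes, two-sided, no covariates). No listed probe was saturated. In simulated data for this comparison 155 of 200 changed probes were recovered, with 5 false calls among 30267 probes. The number of arrays limits the precision. The study's methods call replicates biological, and no source ties an array to a named animal.

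The 9 genes, the pathway and marker lists and the tests were chosen with earlier results of these data known. The values of 2 listed genes are not reported here, and they are left out of all list counts. The 9 genes are described in full, the other pathway genes with values where they were called, and the genes most like C3, Cfb and the C1q mean by the correlation of deviations from group means. Symbols came from RefSeq (GRCm38.p6) through accessions for 28223 probes. Alternatives were normexp with an offset of 50, on median spot intensities because mean intensities were not used here, 75th percentile scaling, the deposited matrix, other filters, slide and replicate blocks, array weights, the methods' t-test, the mean over probes and leaving out each array.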

Additional observations from a re-analysis of the deposited data

Results flagged for a closer look

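In 23 genes, the 9 complement genes and the 14 called pathway genes, the 46 groups of 5 arrays were searched for an array at an end whose gap to its nearest neighbor took more than 0.71 of the group's range, which chance gives in about 1 in 20 groups. There were 10 such gaps, and 9 of them came from SCC replicate 2. That array was low for C1qb (gap 0.784 of the range, 9.72 against 10.64 to 10.89 on the other SCC arrays), C1qc (0.76, 11.70 against 12.48 to 12.73), C3ar1 (0.793, 6.20 against 8.40 to 8.98), Itgam (0.839), Itgax (0.861) and Itgb2 (0.814). It was high for Cfb (0.79, 13.28 against 12.93 to 13.01), Serping1 (0.788) and Vtn (0.919). The remaining gap was WT replicate 3 for Clu (0.781, 13.61 against 13.94 to 14.03). SCC replicate 2 lay nearer to the WT range than the other SCC arrays for 8 of its 9 genes and farther from it for Cfb.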

How the results depend on the processing

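The 4 calls among the 9 genes numbered 4 in every alternative except slide as a fixed block, which gave 0, and an adjusted p alone, which gave 5. Among the pathway genes 14 were called, and 9 with slide as a fixed block. Over all 15586 genes tested, the 1803 higher and 2084 lower calls fell to 816 and 1002 with that block. The other alternatives gave 13 to 15, and an adjusted p alone gave 20. With the replicate number as a block 4 and 14 were called. Deviations of same-numbered arrays correlated at r = -0.10 to 0.01. No likeness showed there, but single pairs of arrays cannot exclude that same-numbered mice were paired. The difference of C3 turned positive with 75th percentile scaling (0.22) and as the mean over its probes (0.17), and ranged from -0.16 to 0.037 with 1 array left out. That of Cd59a turned positive with slide as a fixed block (0.14) and ranged from -0.43 to 0.070 with 1 array left out. With array quality weights it was -0.43 (adjusted p = 0.0281). With slide as a fixed block only the 4 arrays of slide 2 set SCC against WT, with a single WT array, so that fit has less power. Dim genes such as C5ar1 and C3ar1 depend most on the background correction.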
